A study of Mus musculus with 4 samples.

Results

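Amphiregulin (Areg), epiregulin (Ereg), epigen (Epgn) and betacellulin (Btc) are ligands of the epidermal growth factor (EGF) family whose genes lie next to each other on mouse chromosome 5. These 4 genes, of 21887 protein-coding genes counted, were described here by the openness of their chromatin in T cells. They were taken by name and position, and earlier results of these data were known when they were chosen. Chromatin was measured with ATAC-seq, in which a transposase cuts accessible DNA and leaves a fragment at each pair of cuts, in the nuclei of T cells sorted from AKP tumors and from the adjacent cecum. AKP tumors grow from transplanted cancer organoids, and both tissues were taken 4 weeks after transplantation. The host strain, the age, the sex and the number of mice pooled per library are not given in the sources used here for these libraries. There was 1 ATAC library per tissue, so no difference below was tested against a spread between animals, and all intervals are 95% exact intervals that cover counting error only.

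The libraries held 7155 labelled cells with 43980981 fragments in the cecum and 8466 labelled cells with 62118519 fragments in the tumor, with a median of 4374 and 5846 fragments per cell. The study had labelled 17 cell types from the RNA of the same nuclei, and 16 of them had at least 50 cells in each library. PD1+ CD4 cells had 14 cells in the cecum and were read in the tumor alone. In the labelled regulatory T (Treg) subsets, the summed level of 4 Treg markers ranked first in IL-10- Treg cells and second in IL-10+ Treg cells of the 16 types in both libraries. The markers were Foxp3, Il2ra, Ctla4 and Ikzf2. The study had listed Ikzf2 and Il2ra among genes specific to IL-10- Treg cells and Ctla4 among those of IL-10+ Treg cells. The order of the subsets thus depends on the list. The level at Il10 was 153 for the IL-10+ and 79.3 for the IL-10- subset in the cecum. In the tumor these were 146 and 55.1, in fragments per 1000000 fragments of that cell type and library (FPM). All levels below are in FPM. There were 84 barcodes labelled in both libraries.

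EGF family ligands are made as membrane-anchored precursors. Metalloproteases such as Adam17 release the soluble ligand, which binds the EGF receptor or its relatives on epithelial and other cells. Amphiregulin is known as a tissue-repair factor that can be made by Treg cells, Th2 cells and innate lymphocytes. The study had named Areg in a gene module of IL-10- Treg cells found with the RNA of these same nuclei, so its direction between the Treg subsets is not independent evidence. Accessible chromatin is not expression, and RNA was not analysed here.

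In the RefSeq annotation of GRCm38.p6 the genes run along chromosome 5 from Epgn (91027517 to 91035212) through Ereg (91074617 to 91093649) and Areg (91139599 to 91148432) to Btc (91357261 to 91402994). The gap is 39.4 kb between Epgn and Ereg, 46.0 kb between Ereg and Areg, and 209 kb between Areg and Btc. Promoter sequence was at hand for 3 of the 4 genes. The 250 bases before the annotated start are shown for Areg and Btc, 5′ to 3′ on the strand of the gene. The start of each lay inside a larger open stretch of chromatin described below. The first base of the Ereg span lay in a smaller open stretch, with 20 cecal and 23 tumoral fragments, and no Ereg promoter sequence was at hand. The Areg sequence is chr5:91139349-91139598 on the plus strand and the Btc sequence is chr5:91402995-91403244 on the minus strand, both from RefSeq for GRCm38.p6. Capitals mark matches to the motifs listed after them.
Areg: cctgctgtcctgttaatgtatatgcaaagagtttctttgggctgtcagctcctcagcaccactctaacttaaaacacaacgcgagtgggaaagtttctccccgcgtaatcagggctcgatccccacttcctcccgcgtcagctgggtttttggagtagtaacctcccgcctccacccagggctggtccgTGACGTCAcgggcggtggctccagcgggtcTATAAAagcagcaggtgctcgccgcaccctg
Btc: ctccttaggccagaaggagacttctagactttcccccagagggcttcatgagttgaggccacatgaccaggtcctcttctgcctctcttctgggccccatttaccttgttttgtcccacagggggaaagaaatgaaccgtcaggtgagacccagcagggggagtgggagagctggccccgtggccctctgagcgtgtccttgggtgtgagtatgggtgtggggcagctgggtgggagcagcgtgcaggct
The motifs searched on both strands were TGACGTCA (cyclic AMP response element), TGANTCA (AP-1), AAAGGTCA (NR4A factors), AGATAA (factors of the GATA family) and TATAAA (the element that helps to place the start). The Areg sequence held a cyclic AMP response element beginning 61 bases before the start, a motif found in 1.55% of 32851 promoter sequences of this length. It also held this last motif, known as the TATA box, beginning 31 bases before the start, as did 12.4% of promoter sequences. No other match lay in these 250 bases of Areg, and none of the 5 motifs matched in those of Btc. The Epgn sequence, not shown, held a GATA and a TATA box match. The Areg sequence held 15 CpG dinucleotides, against 4 for Btc, 5 for Epgn and a median of 6 over all promoter sequences. These matches describe letters and not binding.

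Areg was the most open gene of the cluster. A fragment was counted for a gene if either of its ends lay in the gene span or within 5 kb of it. Over all labelled cells the Areg window held 520 cecal and 703 tumoral fragments, or 0.628 and 0.601 FPM per kb of window. The same density was 0.131 and 0.120 for Epgn, 0.110 for Ereg in both libraries, and 0.0445 and 0.0589 for Btc. The median protein-coding gene stood at 0.666 and 0.694, so that 49.2% and 47.8% of genes lay below Areg. In IL-10- Treg cells alone the Areg density was 2.69 and 2.60 FPM per kb, above 80.6% and 80.3% of genes.

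The level at Areg was highest in IL-10- Treg cells in both tissues, at 50.7 FPM in the cecum (152 fragments, interval 42.9 to 59.4) and 48.9 in the tumor (284 fragments, interval 43.4 to 55.0). Th2 cells, the helper subset of type 2 immunity, came next with 40.4 FPM (23 fragments, interval 25.6 to 60.7) and 43.3 FPM (19 fragments, interval 26.1 to 67.6). IL-10+ Treg cells followed with 30.8 FPM (176 fragments, interval 26.4 to 35.7) and 29.3 FPM (80 fragments, interval 23.3 to 36.5). The order of these 3 types was the same in the libraries, while the step from one to the next was within counting error.

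Th17 cells stood at 24.1 FPM in the cecum (21 fragments) and 23.9 in the tumor (56 fragments), and Tfh-like cells at 20.2 (43 fragments) and 19.6 (11 fragments). Rorgt gdT cells, gamma-delta T cells labelled by the transcription factor RORgt, had 12.9 FPM in the cecum (28 fragments) and 26.3 in the tumor (56 fragments). PD1+ CD4 cells of the tumor had 13.0 FPM (80 fragments, interval 10.3 to 16.2). These CD4 and gamma-delta types formed a middle range with wide intervals.

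At the low end, Cytotoxic CD8 cells had 0.885 FPM in the cecum (3 fragments, interval 0.183 to 2.59) and 3.99 in the tumor (15 fragments, interval 2.24 to 6.59). CD8aa cells had 0.928 and 0.578 FPM, from 2 fragments in each library. CCR7+ CD8 cells had 1 fragment in the cecum and none in the tumor, where the interval reaches 4.15 FPM. The low end was not made of CD8 types alone. Innate-like T#1 cells had the lowest cecal level, 0.744 FPM (6 fragments), and 1.60 in the tumor (20 fragments). Cytotoxic gdT cells had 1.66 and 0.477 FPM (5 and 2 fragments), and CCR7+ CD4 cells 2.51 and 1.37 FPM (3 and 1 fragments). Of the 15 steps between neighbours in the order of levels, 0 had an interval of the log2 ratio that excluded 0 in the cecum and 1 in the tumor, the step from Tfh-like to newly activated CD4 cells. Barcodes without a label, which can hold free fragments and cells that the study did not keep, had an Areg level of 10.4 and 13.6 FPM, above that of every CD8 type. This level was also above that of both Innate-like T types and of Cytotoxic gdT, Mucosal Th1 and CCR7+ CD4 cells.

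**Figure D1:**
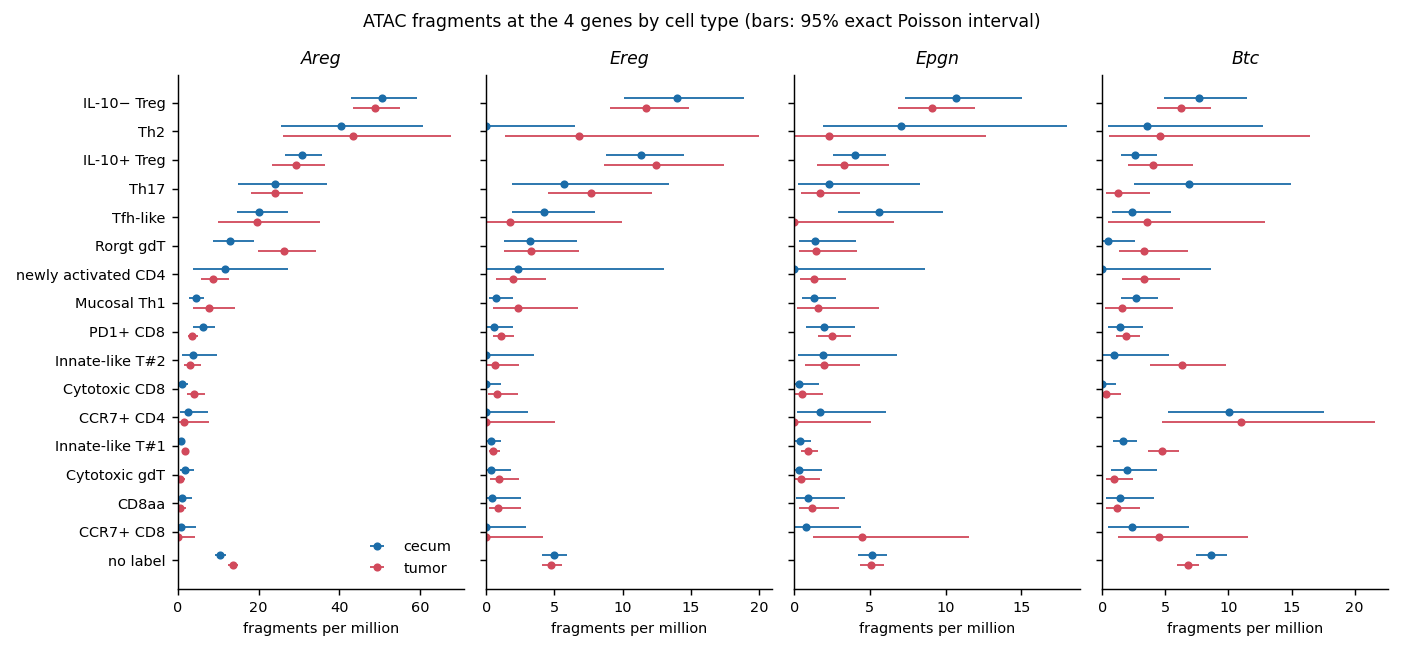
FPM at Areg, Ereg, Epgn and Btc (horizontal axes, each with its own scale) in 16 labelled cell types and in barcodes without a label (vertical axis), with points for the cecum (blue) and tumor (red) libraries and bars for 95% exact Poisson intervals. IL-10- Treg cells led at Areg with 50.7 and 48.9, both Treg subsets led at Ereg, and CCR7+ CD4 cells led at Btc with 10.1 and 11. The step from the leading type to the next was within counting error at each gene.

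The fragments at Areg came from many cells. In IL-10- Treg cells they came from 102 of 424 cells in the cecum and 199 of 737 in the tumor, with at most 7 and 6 from a cell. In IL-10+ Treg cells they came from 135 of 996 and 60 of 387 cells.

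Ereg had its highest levels in both Treg subsets. IL-10+ Treg cells had 11.4 FPM in the cecum (65 fragments, interval 8.79 to 14.5) and 12.5 in the tumor (34 fragments, interval 8.63 to 17.4). IL-10- Treg cells had 14.0 FPM (42 fragments, interval 10.1 to 18.9) and 11.7 FPM (68 fragments, interval 9.10 to 14.8). Th17 cells had 5.74 FPM (5 fragments) and 7.69 FPM (18 fragments), and PD1+ CD4 cells of the tumor 5.05 FPM (31 fragments, interval 3.43 to 7.16). Th2 cells, second at Areg, had 0 fragments at Ereg in the cecum, where the interval reaches 6.49 FPM, and 3 fragments in the tumor. Cytotoxic CD8 cells had 0 and 3 fragments, so Ereg was not detectable above a few counts there. Barcodes without a label had 4.95 and 4.78 FPM at Ereg, within the intervals of the Th17 and PD1+ CD4 cells and below those of every Treg group.

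Epgn was led by IL-10- Treg cells, with 10.7 FPM in the cecum (32 fragments, interval 7.29 to 15.1) and 9.13 in the tumor (53 fragments, interval 6.84 to 11.9). IL-10+ Treg cells had 4.03 FPM (23 fragments, interval 2.55 to 6.04) and 3.30 FPM (9 fragments, interval 1.51 to 6.26). Tfh-like cells of the cecum had 5.63 FPM (12 fragments), and those of the tumor 0 fragments, where the interval reaches 6.58 FPM. Barcodes without a label had 5.13 and 5.10 FPM at Epgn, above the IL-10+ Treg level in both libraries.

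At Ereg and Epgn, 0 of the 15 steps between neighbours in the order of levels lay beyond counting error in either library. Btc had another order of cell types, also with 0 of 15 such steps. CCR7+ CD4 cells, which carry the lymph node homing receptor of naive and central memory T cells, had its highest level, 10.1 FPM in the cecum (12 fragments, interval 5.20 to 17.6) and 11 in the tumor (8 fragments, interval 4.73 to 21.6). The same cells had 3 and 1 fragments at Areg and 0 in both libraries at Ereg. IL-10- Treg cells had 7.66 FPM at Btc (23 fragments, interval 4.86 to 11.5) and 6.20 FPM (36 fragments, interval 4.34 to 8.58). Barcodes without a label stood at 8.61 and 6.78 FPM, within the intervals of both CCR7+ CD4 and IL-10- Treg cells in each library.

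Across 33 cell type and library pairs with at least 50 cells, the Pearson correlation of log2(FPM + 1) was 0.81 between Areg and Ereg, 0.54 between Areg and Epgn and 0.24 between Areg and Btc. The pairs share libraries and have unequal depth, so these values are a description.

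All 4 members were higher in Treg cells, both subsets summed, than in the other labelled cells. The log2 ratio was 2.79 (2.53 to 3.05) for cecal and 2.75 (2.54 to 2.97) for tumoral cells for Areg, and 3.67 (3.10 to 4.27) and 2.72 (2.31 to 3.14) for Ereg. It was 2.24 (1.66 to 2.84) and 2.48 (1.96 to 2.99) for Epgn, and 1.12 (0.51 to 1.70) and 0.91 (0.41 to 1.39) for Btc. With a pseudocount of 1 FPM, 4 of the 4 members were at least 1.5-fold higher in both libraries, where 2.6% of 17355 genes were. With a pseudocount of 5 FPM 3 of the 4 were, without Btc. Outside Treg cells, Ereg had 34 and Epgn 47 cecal fragments, so both reached the minimum of 50 for this call only with the Treg cells, where they were high, and the count of members adds nothing to the ratios. With a minimum of 200 fragments Areg alone was tested, and it passed. Over the gene span alone, the Epgn ratio was 0.70 for cecal and 1.21 for tumoral cells, with 20 kb on each side 1.46 and 1.44, and as a mean over cells 1.86 for tumoral cells. The cecal Ereg ratio was 2.85 as a mean over cells and 3.02 within 1 kb of the gene ends. Cell numbers do not enter these levels, which are per fragment, but more open cells and more open chromatin per cell cannot be told apart in a sum over cells.

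The first comparison of the study is between the Treg subsets, those labelled as expressing the cytokine IL-10 and those not. Areg and Epgn were less open in IL-10+ than in IL-10- Treg cells in both tissues, while Ereg was not. The subset ratio given here is the log2 of the IL-10+ level divided by the IL-10- level. For Areg it was -0.72 (-1.04 to -0.39) for cecal and -0.74 (-1.11 to -0.38) for tumoral cells. For Epgn it was -1.40 (-2.24 to -0.59) and -1.47 (-2.67 to -0.44). For Ereg it was -0.30 (-0.88 to 0.30) and 0.09 (-0.55 to 0.70), so the counts allow a difference of up to 1.84-fold lower or 1.63-fold higher. Btc had -1.54 (-2.59 to -0.54) for cecal and -0.62 (-1.74 to 0.38) for tumoral cells, from 15 against 23 and 11 against 36 fragments.

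Of the 3 members with at least 50 fragments over both subsets in each library, Areg and Epgn were at least 1.5-fold lower in the IL-10+ subset in both tissues. For Areg the cecal ratio fell short of that fold in 2 other settings, at -0.51 when the deepest cells, over 3 times the median fragment count, were left out and at -0.45 as a mean over cells. Epgn reached the minimum only through the IL-10- subset, so its call adds nothing to its ratio. The background of this call was 4.36% of 14409 genes, and the median log2 ratio over those genes, with 1 FPM added to both levels, was 0.01 in each library. Btc had too few fragments to be counted. The summed level of the 4 Treg markers moved in the same direction, with 869 and 792 FPM in IL-10- and 631 and 620 in IL-10+ Treg cells, and its part in the Areg and Epgn ratios was not tested. IL-10- Treg cells were also deeper, with a median of 5635 and 6477 fragments per cell against 4083 and 5479. Summed levels of 6 mast cell and basophil markers were 92 and 85.8 FPM in IL-10- Treg cells, the lowest of the 16 types in both libraries, where the highest type had 134 and 137. Those of 6 myeloid markers were 202 and 198 in IL-10- and 182 and 177 in IL-10+ Treg cells. Those of 10 epithelial markers were 141 and 163 in IL-10- and 108 and 111 in IL-10+ Treg cells, with 173 and 190 in barcodes without a label, and those of 6 B cell markers were 215 and 214 against 204 and 207. The 6 T cell markers summed to 834 and 789 FPM in IL-10- and 914 and 894 in IL-10+ Treg cells. The part of the epithelial list in the Epgn ratio was not tested.

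The tiles across the cluster show where the fragments lay. The stretch from 50 kb before Epgn to 50 kb after Btc (chr5:90977501-91453000) was divided into 951 tiles of 500 bp, and tiles with at least 4 times the median level in each library were joined into 28 open elements. The median tile held a single fragment, so 4 fragments sufficed. Apart from smaller elements at the first base of the Ereg span and inside Mthfd2l, only the 8 elements with at least 40 fragments in each library are read here. This limit was set after the counts were seen. The other 20 elements held 4 to 27 cecal and 4 to 62 tumoral fragments.

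Distances to genes are from the centre of an element. The largest element lay over the Areg start (chr5:91138001-91141500) and includes the promoter sequence printed above. It held 443 of the 520 fragments of the Areg window in the cecum (85.2%) and 553 of 703 (78.7%) in the tumor. Its level, cecum first, was 42.3 and 40.1 FPM in IL-10- Treg cells, 36.9 and 31.9 in Th2 cells, 26.6 and 22.4 in IL-10+ Treg cells, and 20.7 and 20.5 in Th17 cells. The subset ratio there was -0.67 (-1.02 to -0.32) and -0.84 (-1.28 to -0.43), close to that of the whole window.

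A pair of elements between Ereg and Areg, outside the windows of both genes, had lower subset ratios than the Areg start. Their intervals lay apart from that of the Areg start in the cecum and overlapped it in the tumor. The element 15.3 kb before the Areg start (chr5:91123001-91125500, no annotated gene) had 70 fragments and 23.3 FPM (interval 18.2 to 29.5) in IL-10- Treg cells of the cecum and 21 fragments and 3.68 FPM (interval 2.28 to 5.62) in IL-10+ Treg cells. In the tumor the levels were 16.7 FPM (97 fragments, interval 13.5 to 20.4) and 7.70 FPM (21 fragments, interval 4.77 to 11.8). The intervals of the subsets did not overlap in either library. The subset ratio was -2.67 (-3.44 to -1.94) for cecal and -1.12 (-1.87 to -0.43) for tumoral cells. Th2 cells had 31.6 FPM at this element in the cecum (18 fragments) and 13.7 in the tumor (6 fragments). Th17 cells had 0 and 9 fragments, and Tfh-like cells 2 and 0.

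The element 12.8 kb before the Areg start (chr5:91126001-91127500, no annotated gene) had 11.7 FPM (35 fragments) and 12.1 FPM (70 fragments) in IL-10- Treg cells, against 2.45 FPM (14 fragments) and 3.67 FPM (10 fragments) in IL-10+ Treg cells. The subset ratio was -2.25 (-3.26 to -1.32) for cecal and -1.72 (-2.84 to -0.75) for tumoral cells. Th2 cells had 3 and 6 fragments there. Only 24 of its 59 cecal fragments lay outside IL-10- Treg cells, so it reached the limit of 40 through the subset where it was high, and its cecal ratio is a description.

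**Figure D2:**
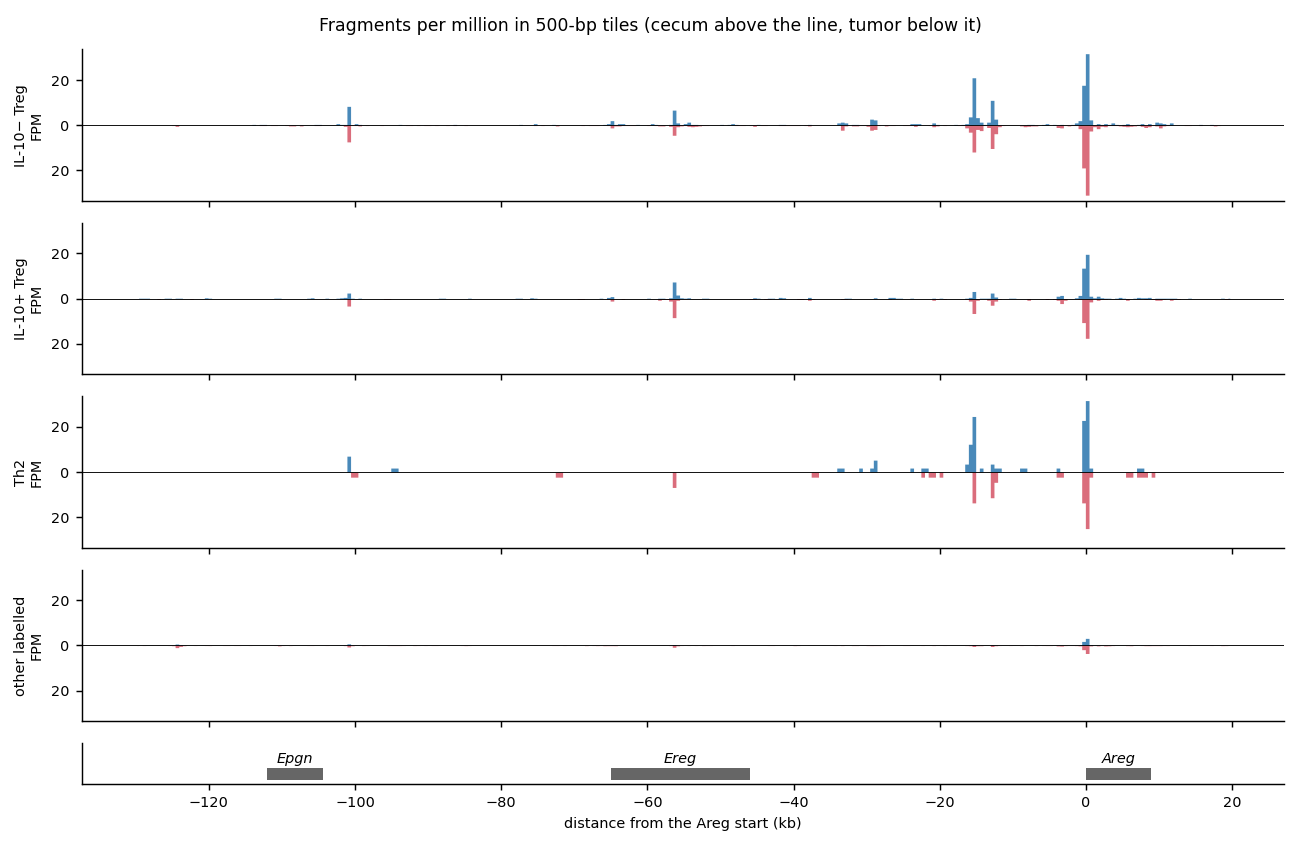
FPM in 500-bp tiles (vertical axes, cecum above and tumor below the line) against the distance from the Areg start in kb, for IL-10- Treg, IL-10+ Treg, Th2 and all other labelled cells, with the Epgn, Ereg and Areg spans as grey bars. The peak 15.3 kb before Areg was taller in IL-10- Treg and Th2 cells than in IL-10+ Treg cells, the one 12.8 kb before it was taller in IL-10- than in IL-10+ Treg cells with only 3 and 6 fragments behind the Th2 line, and the peak in Ereg was present in both Treg subsets.

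The share of fragments in the upstream pair, out of those in the pair and the Areg start element together, does not depend on how many fragments a cell type has. In IL-10- Treg cells it was 45.3% (105 of 232 fragments, exact Clopper-Pearson interval 38.7 to 51.9) in the cecum and 41.8% (167 of 400, interval 36.9 to 46.8) in the tumor. Th2 cells had 50% (21 of 42, interval 34.2 to 65.8) and 46.2% (12 of 26, interval 26.6 to 66.6). IL-10+ Treg cells had 18.7% (35 of 187, interval 13.4 to 25.1) in the cecum and 33.7% (31 of 92, interval 24.2 to 44.3) in the tumor. The intervals of the Treg subsets lay apart in the cecum and overlapped in the tumor. Since the element 12.8 kb before Areg was kept through IL-10- Treg cells, the share was also taken with the element 15.3 kb before it alone, a choice made after the data were seen. It was then 35.5% (70 of 197, interval 28.9 to 42.6) in IL-10- and 12.1% (21 of 173, interval 7.67 to 18.0) in IL-10+ Treg cells of the cecum, and 29.4% (97 of 330, interval 24.5 to 34.6) and 25.6% (21 of 82, interval 16.6 to 36.4) in those of the tumor.

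Tfh-like cells of the cecum had 15.6% (7 of 45, interval 6.49 to 29.5), Th17 cells of the tumor 26.2% (17 of 65, interval 16.0 to 38.5) and newly activated CD4 cells of the tumor 25.0% (7 of 28). Th17 cells of the cecum had 0 of 18 fragments in the pair, under the 20 fragments asked for a share. Rorgt gdT cells had 4.76% (1 of 21, interval 0.12 to 23.8) in the cecum and 28.6% (14 of 49, interval 16.6 to 43.3) in the tumor. The start of Areg was open in cell types with few fragments at the upstream pair.

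**Figure D3:**
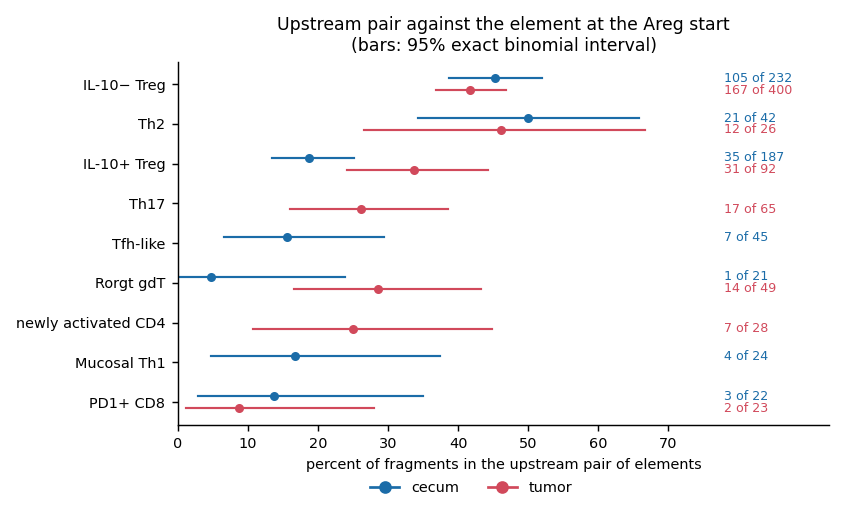
Percent of fragments in the pair of elements 15.3 and 12.8 kb before Areg, out of those in the pair and the element at the Areg start (horizontal axis), by cell type with at least 20 such fragments (vertical axis) for cecum (blue) and tumor (red), with 95% exact binomial intervals as bars and the fragment counts at the right. IL-10- Treg and Th2 cells lay between 41.8 and 50, and IL-10+ Treg cells at 18.7 (cecum) and 33.7 (tumor).

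The element 3.29 kb past the Epgn span (chr5:91038001-91039000, no annotated gene) held most fragments of the Epgn window, 73 of 102 in the cecum and 90 of 132 in the tumor. IL-10- Treg cells had 8.66 FPM (26 fragments) and 7.41 FPM (43 fragments) there, and IL-10+ Treg cells 2.80 FPM (16 fragments) and 3.30 FPM (9 fragments). Its subset ratio was -1.63 (-2.63 to -0.68) and -1.17 (-2.39 to -0.11). Inside the gene span itself the IL-10+ subset had 3 and 0 fragments and the IL-10- subset 1 and 7, so the Epgn ratio rested on fragments outside the gene.

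The element inside the Ereg span (chr5:91082501-91084000) had no lower level in IL-10+ Treg cells. IL-10+ Treg cells had 7.71 FPM (44 fragments) and 9.16 FPM (25 fragments), and IL-10- Treg cells 6.66 FPM (20 fragments) and 5.17 FPM (30 fragments). The subset ratio was 0.21 (-0.58 to 1.05) for cecal and 0.83 (0.00018 to 1.64) for tumoral cells, whose interval only just excludes 0. In the cecum 44 of the 76 fragments of this element lay in IL-10+ Treg cells. It thus reached the limit for the larger elements there only through that subset, and its cecal ratio is a description. Th17 cells of the tumor had 5.56 FPM (13 fragments) and PD1+ CD4 cells of the tumor 3.42 FPM (21 fragments).

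A pair of elements in the annotated gene Gm19619, between Areg and Btc, was led by Tfh-like cells. At chr5:91278501-91279500 these had 7.5 FPM (16 fragments) in the cecum and 8.92 (5 fragments) in the tumor. At chr5:91282001-91283500 they had 6.10 FPM (13 fragments) and 8.92 (5 fragments). Over all labelled cells of the cecum the elements held 44 and 50 fragments. Both thus reached the limit for the larger elements in the cecum only through Tfh-like cells. The cecal lead of these cells is a description, and the tumoral lead rests on 5 fragments at each element. The element over the Btc start (chr5:91402001-91404500) includes the Btc promoter sequence printed above. CCR7+ CD4 cells led there with 9.22 FPM (11 fragments) and 9.59 FPM (7 fragments), and the subset ratio was -1.93 (-3.36 to -0.62) and -1.30 (-3.31 to 0.26).

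Among the smaller elements, that at chr5:91015001-91016000 inside Mthfd2l, 12 kb from Epgn, was singled out after its values were seen. PD1+ CD8 cells held 22 of its 27 fragments in the cecum (6.11 FPM) and 46 of 62 in the tumor (5.03 FPM). It lies outside the windows of all 4 genes.

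**Figure D4:**
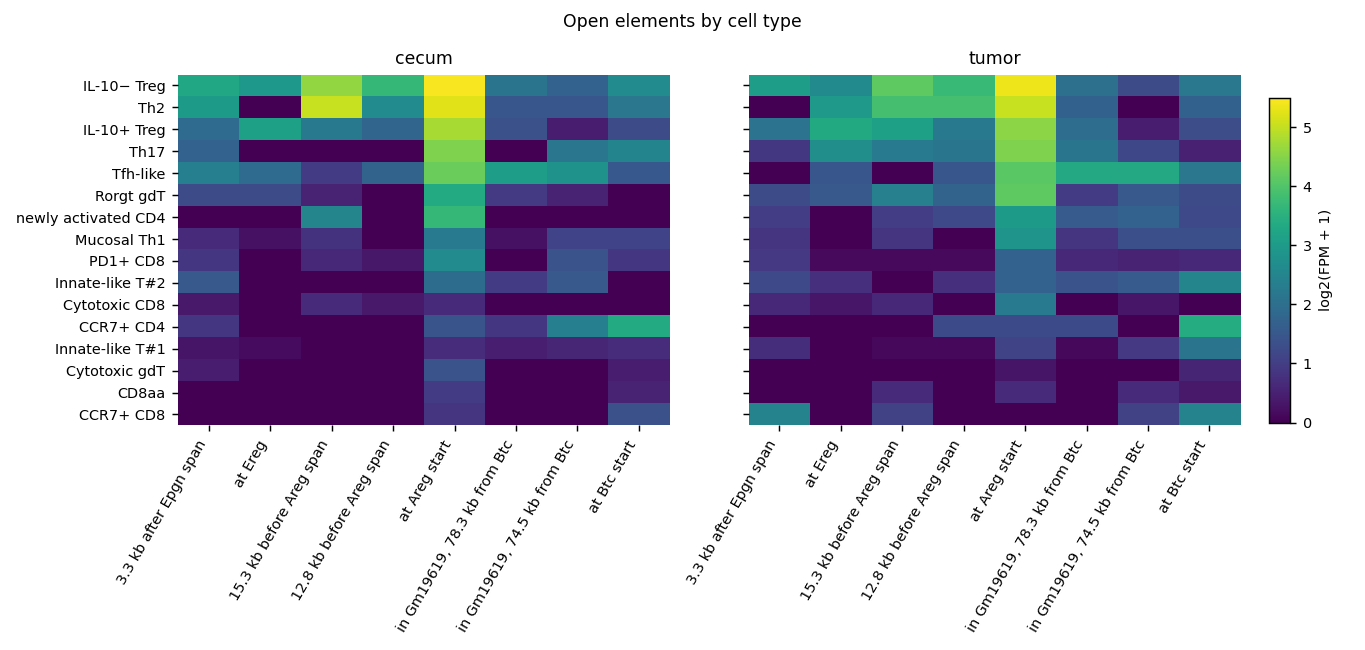
Level of the 8 larger open elements (horizontal axis, left to right along the chromosome) in 16 cell types (vertical axis) as log2(FPM + 1) on a color scale, for the cecum (left) and tumor (right) libraries. The element at the Areg start was bright in many CD4 types and the upstream pair brightest in IL-10- Treg or Th2 cells. The elements in Gm19619 were brightest in Tfh-like cells and the element at the Btc start in CCR7+ CD4 cells. Those in Gm19619 reached the limit for larger elements in the cecum only through Tfh-like cells, which had 5 fragments at each in the tumor.

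Of single tiles, 6 had at least 20 fragments over both subsets in each library. The 3 named here each had under 20 fragments in the IL-10+ subset and reached the minimum only through the IL-10- subset, so their number and direction are no result. The largest difference held in both was at chr5:91126501-91127000, with 14 against 33 fragments and a log2 ratio of -2.17 in the cecum and 8 against 60 fragments and -1.82 in the tumor. Next came chr5:91038501-91039000 past Epgn, with 14 against 25 and 9 against 43 fragments (-1.76 and -1.17), and chr5:91124001-91124500 before Areg, with 18 against 63 and 18 against 69 (-2.74 and -0.85). All 3 tiles lie inside elements described above.

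**Figure D5:**
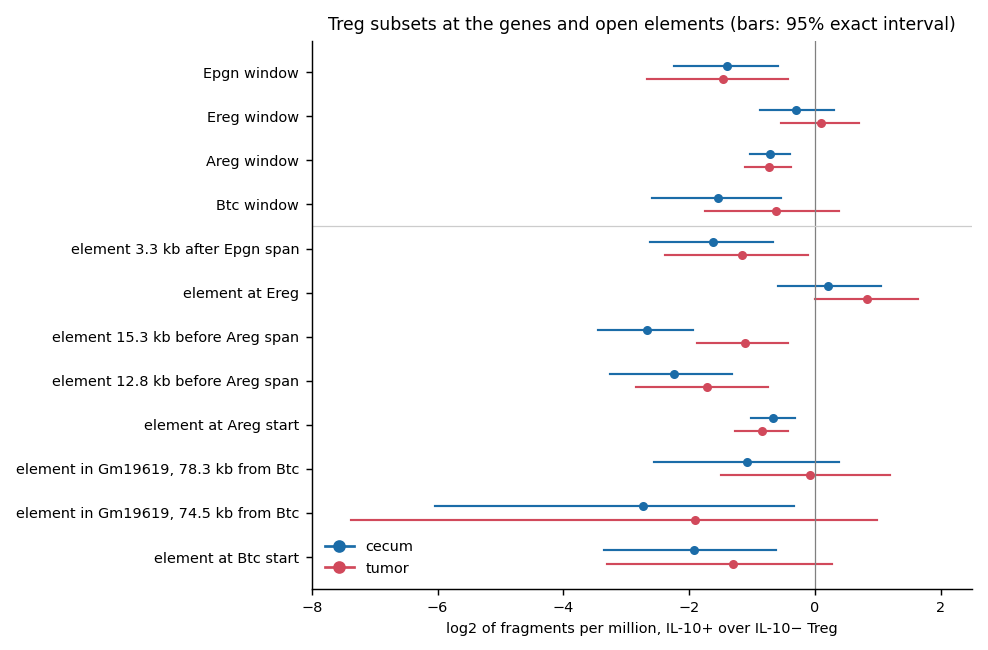
Subset ratio, log2 of FPM in IL-10+ over IL-10- Treg (horizontal axis) at the windows of the 4 genes (upper rows) and at the 8 larger open elements (lower rows), cecum in blue and tumor in red, with 95% exact intervals as bars. The pair before Areg stood at -2.67 and -2.25 in the cecum, further from 0 than the Areg start at -0.67. In the tumor it stood at -1.12 and -1.72 against -0.84, with overlapping intervals. The element 12.8 kb before Areg reached the limit for larger elements in the cecum only through IL-10- Treg cells. The element at Ereg lay at 0.21 and 0.83, and reached the limit for larger elements in the cecum only through IL-10+ Treg cells.

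The second comparison of the study is between tumor and adjacent cecum. The study reported, from RNA, that its IL-10- Treg module with Areg was preferentially found in cells of adjacent normal tissue. The chromatin at Areg alone is another measure than the RNA of a module, and they were not compared here. At Areg neither Treg subset differed in openness between the tissues beyond counting error. The log2 ratio of tumor over cecum was -0.05 (-0.34 to 0.24) in IL-10- Treg cells and -0.07 (-0.47 to 0.32) in IL-10+ Treg cells. It was -0.01 (-0.76 to 0.79) in Th17 cells, 0.10 (-0.86 to 1.04) in Th2 cells and -0.04 (-1.14 to 0.94) in Tfh-like cells. Ereg stood at -0.26 (-0.83 to 0.33) for IL-10- and 0.13 (-0.51 to 0.75) for IL-10+ Treg cells, and Epgn at -0.22 (-0.88 to 0.46) and -0.29 (-1.58 to 0.88). By counting error alone, the interval for Areg in IL-10- Treg cells runs from 1.27-fold lower to 1.18-fold higher in the tumor. It holds no spread between animals or libraries, and tissue and library cannot be told apart. It therefore does not bound the change between the tissues.

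At the element 15.3 kb before Areg, the log2 ratios of tumor over cecum had opposite signs in the Treg subsets. In IL-10+ Treg cells the ratio was 1.07 (0.12 to 2.01). In IL-10- Treg cells it was -0.48 (-0.94 to -0.02), with an interval that only just excludes 0. This difference between the subsets was not tested. At each of the other larger elements both intervals included 0, and some of these also had opposite signs. At the element 12.8 kb before Areg the ratios were 0.58 (-0.75 to 1.86) and 0.05 (-0.56 to 0.68). At the Areg start they were -0.25 (-0.70 to 0.19) and -0.08 (-0.39 to 0.25). The only tile that met the rule for the tissue comparison, with at least 20 fragments and the same sign in both subsets, was chr5:91139501-91140000 at the Areg start, with -0.16 and -0.03.

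Outside Treg cells, Areg was more open in the tumor in Rorgt gdT cells, with a log2 ratio of 1.02 (0.35 to 1.73) from 56 against 28 fragments. This was at least 1.5-fold, as were 3.89% of 13330 genes in those cells. The 28 cecal fragments alone lay under the minimum of 50 for this call, which was met with those of the tumor, so the call adds nothing to the ratio. Over the gene span alone the ratio was 0.46, short of that fold. Cecal Rorgt gdT cells had a median of 3930.5 fragments and tumoral ones of 6911, and Rorgt gdT cells had the highest summed level of the 6 B cell markers of the 16 types in both libraries, at 377 and 431 FPM. The part of either in the ratio was not tested. In Cytotoxic CD8 cells Areg had 3.99 FPM (15 fragments) in the tumor and 0.885 FPM (3 fragments) in the cecum, a log2 ratio of 2.17 (0.35 to 4.60). In PD1+ CD8 cells Areg was lower in the tumor with -0.80 (-1.63 to 0.05), from 32 against 22 fragments, a fold reached by 0.779% of genes, with an interval that includes 0. Neither library alone held the minimum of 50 fragments there, so this call adds nothing to the ratio. Btc was higher in the tumor in Innate-like T#1 cells, at 4.72 FPM (59 fragments) against 1.61 (13 fragments), a log2 ratio of 1.55 (0.67 to 2.54), where 1.58% of genes were at least 1.5-fold higher. The Btc start element lies inside the Btc window and held 42 of these 59 tumoral and 5 of these 13 cecal fragments. Btc reached the minimum of 50 fragments in these cells only through the tumor, so the call is no support for the difference. With a pseudocount of 5 FPM neither Areg in PD1+ CD8 cells nor Btc in Innate-like T#1 cells reached the fold. In Th17 cells Btc went the other way, with 3 fragments in the tumor and 6 in the cecum and a log2 ratio of -2.43 (-5.05 to -0.20). In Innate-like T#2 cells Btc had 19 fragments in the tumor and 1 in the cecum, a log2 ratio of 2.74 (0.09 to 8.12). Over the 16 cell types a ratio was given for 13 at Areg, 14 at Btc, 12 at Epgn and 10 at Ereg. The interval excluded 0 for 2 higher ratios at Areg, 2 higher and 1 lower at Btc, and 0 at Epgn and Ereg. The intervals were not adjusted for the number looked at. Barcodes without a label had 8.61 FPM at Btc in the cecum and 6.78 in the tumor, the opposite direction to both Innate-like T types.

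The other genes of the pathway were fixed as a list of 7 further ligands, 4 receptors and 4 proteins of ligand shedding, and all 15 had enough fragments. Between the Treg subsets, 0 of the 15 were at least 1.5-fold higher and 0 at least 1.5-fold lower in both libraries. Over all genes 0.861% were higher and 4.36% lower, so that a count of 0 among 15 is no result about the list. With 1 FPM added to both levels, the median log2 ratio of the list was 0.15 and 0.02, against 0.01 in each over all genes. Hbegf, the ligand also known as the diphtheria toxin receptor, was more open in IL-10+ Treg cells, with 0.74 (0.33 to 1.17) for cecal and 0.45 (0.10 to 0.78) for tumoral cells. Tgfa, another ligand of the EGF receptor, had -1.50 (-2.23 to -0.78) for cecal and -0.33 (-1.12 to 0.42) for tumoral cells. Adam17, the main sheddase of amphiregulin, had 0.04 (-0.18 to 0.25) and 0.22 (-0.0015 to 0.43), and the EGF receptor gene Egfr 0.23 (-0.33 to 0.80) and -0.45 (-1.04 to 0.10).

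The genes whose level followed that of Areg most closely over the 33 cell type and library pairs were Plcb4, Stxbp4, Smco4, Mettl24 and Il1r2, with Pearson correlations of 0.91, 0.90, 0.89, 0.89 and 0.88, the highest of 13378 genes. The median correlation over those genes was -0.09. Their order over cell types was not that of Areg in full. Plcb4, for example, had 316 FPM in Th17 cells of the cecum against 219 for the IL-10- and 127 for the IL-10+ subset of Treg cells. The pairs share libraries and differ in depth, so the correlations are descriptions.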

How the data were processed

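A 10x multiome assay of sorted T cells gave 1 ATAC library for AKP tumor and 1 for adjacent cecum. Cell Ranger ARC 2.0.0 and mm10 are named in the file headers, and mm10 is the build of GRCm38.p6. Each deposited line is a unique fragment with its barcode and a raw count of read pairs, not normalized. Cell type and library labels are those the authors deposited for 15621 cells. Doublet removal is not stated in the sources used here, and no doublet caller was run.

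Each fragment of the autosomes, X and Y was counted once (Python 3.11.15, scipy 1.17.1 and numba 0.67.0), summed per cell type and library, and scaled to 1000000 fragments of that cell type (FPM). A fragment belonged to a window if either end lay in it. The RefSeq table holds gene spans without exons, so whether an element is exonic or intronic is not stated. Levels have exact Poisson intervals, log2 ratios exact conditional intervals and shares Clopper-Pearson intervals, at 95%. A count of 0 was set to a floor of 3 counts for a ratio. No ratio was given where neither count passed 3. A pseudocount of 1 FPM was used for calls and medians across genes, the correlations and the color scale of element levels, not for the other ratios, and shrinks the ratio of genes at low counts. Counting was tested on simulated fragments.

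The members, gene lists and rules were chosen with earlier results of these data known. The genes and regions named are the 4 members, the 5 genes of highest Pearson correlation with Areg among genes with at least 500 fragments in each library, the listed EGF genes at least 1.5-fold apart in both libraries, the open elements, and up to 3 tiles per comparison with at least 20 fragments. Hbegf, Tgfa, Adam17 and Egfr were named from the list after their values were seen. Alternatives changed the cells, the window, the scaling, the weighting, the thresholds and the correlation.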

Additional observations from a re-analysis of the deposited data

Results flagged for a closer look

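Several ratios had opposite signs in the groups compared. With 1 library per tissue none of these differences was tested. At the element 15.3 kb before the Areg start, the log2 ratio of tumor over cecum was 1.07 for the IL-10+ subset and -0.48 for the IL-10- subset. Each interval excluded 0, that of the IL-10- subset only just. The log2 ratio between the Treg subsets at Ereg, IL-10+ over IL-10-, was -0.30 for the cecum and 0.090 for the tumor library, both within counting error of 0. The log2 ratio of tumor over cecum was 0.13 for the IL-10+ and -0.26 for the IL-10- subset at Ereg, and 0.62 and -0.31 at Btc, where each interval included 0.

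Barcodes without a label, which enter no comparison, had higher levels at 3 of the members than labelled cells as a whole. At Epgn they had 5.13 FPM (cecum) and 5.10 FPM (tumor), against 2.32 and 2.12 in labelled cells. At Ereg it was 4.95 and 4.78 against 3.21 and 3.20, and at Btc 8.61 and 6.78 against 2.48 and 3.28. At Areg the order differed between the libraries, with 10.4 against 11.8 in the cecum and 13.6 against 11.3 in the tumor. The log2 ratio of labelled over unlabelled was 0.18 (-0.05 to 0.41) in the cecum, within counting error of 0, and -0.27 (-0.44 to -0.09) in the tumor.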

How the results depend on the processing

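No paired analysis was possible because each tissue had 1 ATAC library, and for the same reason no library could be left out in turn. Of 124 values of the main comparisons under the other settings 113 lay within the counting interval of the main value, or within 1.5 times a main count, and 11 moved. Of the 106 log2 ratios among them 9 changed sign, 5 at Ereg, 2 at Areg, 1 at Epgn and 1 at Btc, each with a main interval that included 0. Leaving out barcodes labelled in both libraries, added after the data were seen, moved none of 16 such values beyond its interval. The Areg ratio between the Treg subsets moved in the cecum to -1.19 with 20 kb on each side, a window that takes in the upstream pair. With the span alone, which leaves out the element past Epgn, Epgn had 0 against 7 fragments in the tumor for the Treg subsets, a ratio of at most -0.13 with the 0 set to 3 counts, and 1.86 for tumor over cecum in IL-10- Treg cells (7 against 1). Its Treg subset ratio in the cecum was -2.27 as a mean over cells. Ereg within 1 kb of the gene ends had -0.61 between the subsets in the tumor. The share of genes lower in IL-10+ Treg cells was 1.65% with a minimum of 200 fragments. There were 18 open elements at 8 times the median. Of the pathway list 1 gene, Tgfa, was past the fold within 1 kb of gene ends. Of the 5 genes most like Areg, 2 were shared with the Spearman ranking, 2 with the cecum alone and 2 with the tumor alone. At the element 15.3 kb before Areg, a mean over cells gave -3.60 between the subsets in the cecum and -0.94 for tumor over cecum in IL-10- Treg cells. For the values where no construction is named the cause was not tested.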
